A study of Mus musculus with 24 samples.

Results

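The protein-coding genes Map2k4, Myocd, Elac2, Arhgap44 and Slitrk1 were followed through CUT&RUN peak lists of 2 mouse melanoma lines, because they lie in long stretches of the genome where the Kmt2d mutant line had no peak and the Kmt2d WT line had many. They are 5 of the 21900 protein-coding genes of the mouse RefSeq table. The choice used the peaks themselves, so the presence of WT peaks and the absence of mutant peaks at these genes is a description and was not tested. Each gene was taken with 100 kb on each side, peaks were counted by line and target, and a stretch was the run between neighbouring mutant peaks of any target that overlaps the gene. The name "without peaks in the mutant line" fitted the windows of only Myocd and Slitrk1, which held 0 mutant peaks. The windows of Map2k4, Elac2 and Arhgap44 did hold mutant peaks, all of them at or beyond the edges of the stretch.

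The mutant group was line 493, labelled Kmt2d mutant, and the WT group was line 971, labelled Kmt2d WT, with no allele named; both are melanoma cells grown in DMEM/F12 medium with fetal bovine serum. CUT&RUN, in which an antibody directs a nuclease to cut out the DNA around its target, was done with an Epicypher kit. Of the 24 samples, 22 had a peak list, 12 from the mutant line and 10 from the WT line, and the 2 IgG controls had none. Each line and target had 1 library and each genotype 1 line, so no difference has a replicate check, no test was made, and line and genotype cannot be told apart.

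The 12 mutant lists held 106919 peaks and the 10 WT lists 90808, and over the 9 targets with a list in both lines the numbers were 90720 in the mutant line and 84374 in the WT line. The lists that matter most here held 16438 mutant and 14666 WT peaks of H3K4me3, 25385 mutant and 22199 WT peaks of ARID1A, 9707 mutant and 9712 WT peaks of UTX, and 18530 mutant and 11636 WT peaks of TFAP2A. SMARCC1 was uneven, with 2910 mutant peaks against 11507 WT peaks, and 83.1% of all WT SMARCC1 peaks had no overlapping mutant SMARCC1 peak. Lists for TFAP2B and for 2 SOX10 antibodies were analysed for the mutant line only, and a KMT2D list for the WT line only. Of 10 melanocyte and melanoma markers, 3 had an H3K4me3 peak within 1 kb of a gene end in the mutant line (Sox10, Mitf and Pmel) and 2 in the WT line (Mitf and Pmel), while Kit and Ednrb had no peak of any target within 100 kb in either line. Among markers of other cells, the same mark was found at 2 fibroblast genes of 6 in the mutant line and 2 in the WT line, at 2 smooth muscle genes of 5 in the mutant line and 0 in the WT line, and at 1 of 4 keratinocyte, 1 of 4 endothelial and 0 of 4 blood genes in each line.

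H3K4me3 is a histone mark of active promoters. KMT2D is a histone methyltransferase of enhancers that works in a complex with the demethylase UTX, and Menin is a partner of the related enzymes that act at promoters. ARID1A and SMARCC1 are subunits of the SWI/SNF chromatin remodeller, found at both promoters and enhancers, and TFAP2A is a transcription factor of the melanocyte lineage. Map2k4 encodes a kinase that activates JNK and p38. Myocd encodes myocardin, the coactivator through which serum response factor drives cardiac and smooth muscle genes, Elac2 the endonuclease that trims the 3′ end of tRNA precursors, Arhgap44 a GTPase-activating protein with a membrane-bending BAR domain, and Slitrk1 a neuronal adhesion protein that binds LAR-type receptor phosphatases at synapses.

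Promoter sequences were held by RefSeq (GRCm38.p6, the assembly of mm10) for 4 of the 5 genes, Elac2, Map2k4, Arhgap44 and Slitrk1. They are shown because the H3K4me3 status of these 4 starts differs: marked in both lines at Elac2 and Map2k4, in neither at Arhgap44, and in the WT line alone at Slitrk1. Each is the 250 bases before the start used in the RefSeq sequence table, 5′ to 3′ on the gene's strand, and at Elac2 and Arhgap44 the window reaches a few bases into the gene as the gene table gives it: chr11:64978785-64979034 on the plus strand for Elac2, and, on the minus strand, chr11:65788360-65788609 for Map2k4, chr11:65162962-65163211 for Arhgap44 and chr14:108914240-108914489 for Slitrk1. Capitals mark a match to GCCNNNGGC, a TFAP2 motif.
Elac2: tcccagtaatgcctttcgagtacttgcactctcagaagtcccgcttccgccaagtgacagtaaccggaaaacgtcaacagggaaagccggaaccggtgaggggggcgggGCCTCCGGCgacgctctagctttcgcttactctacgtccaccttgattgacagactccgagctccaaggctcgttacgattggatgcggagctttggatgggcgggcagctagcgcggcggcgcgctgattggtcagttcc
Map2k4: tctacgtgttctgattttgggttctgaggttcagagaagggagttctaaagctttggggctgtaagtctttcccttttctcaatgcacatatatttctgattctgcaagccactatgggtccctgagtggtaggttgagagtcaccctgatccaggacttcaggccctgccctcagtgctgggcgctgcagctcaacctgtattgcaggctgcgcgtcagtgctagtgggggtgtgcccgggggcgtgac
Arhgap44: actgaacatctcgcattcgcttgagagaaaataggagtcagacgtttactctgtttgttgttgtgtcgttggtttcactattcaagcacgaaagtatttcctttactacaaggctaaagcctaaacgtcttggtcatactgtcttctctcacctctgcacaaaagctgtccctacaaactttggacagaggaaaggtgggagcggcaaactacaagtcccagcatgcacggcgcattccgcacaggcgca
Slitrk1: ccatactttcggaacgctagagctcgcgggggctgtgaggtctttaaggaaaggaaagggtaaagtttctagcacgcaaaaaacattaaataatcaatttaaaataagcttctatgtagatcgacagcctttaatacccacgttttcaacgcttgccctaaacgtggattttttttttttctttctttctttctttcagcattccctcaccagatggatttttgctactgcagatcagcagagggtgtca

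The 4 promoters differed in base composition. Elac2 held 23 CpG dinucleotides at 59.6% G+C, Arhgap44 held 11 at 46.8%, Slitrk1 held 9 at 40.4%, and Map2k4 held 6 at 54.0%, beside a median of 6 CpG and 52.4% G+C over all 32851 promoters of the table. Of these 4 windows the one with the fewest CpG, at Map2k4, was marked in both lines, and Arhgap44, with more, in neither. The table gives Map2k4 a second start inside the stretch, whose window at chr11:65745857-65746106 held 3 CpG at 40.0% G+C and had no peak in either line. These motifs were searched on both strands: GCCNNNGGC (TFAP2), TGANTCA (AP-1), ACAAAG (SOX) and the CArG box of serum response factor. They occur in 13.7%, 6.75%, 16.5% and 1.47% of all promoters, in that order. The single match among the 4 genes was the TFAP2 motif of Elac2, and no TFAP2A peak lay there in either line, whereas the Map2k4 window, which had no match, lay under a TFAP2A peak in both lines.

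Around the 5 genes, mutant peaks were fewer than WT peaks, except at Elac2, which had 1 of each. The union of the 5 windows held 11 mutant and 39 WT peaks, and 2 of the 5 windows had no mutant peak. Map2k4 held 10 of the 11 mutant peaks. Over all 21900 genes the median window held 16.0 mutant and 13.0 WT peaks. All 5 genes were below that mutant median. The WT count was above its median at Map2k4 (15), equal to it at Slitrk1 (13) and below it at Myocd (10), Arhgap44 (7) and Elac2 (1). Among all 21900 genes, 85.3% had at least 1 mutant peak in such a window, 83.7% had at least 1 WT peak, and 14.7% had no mutant peak. By both lines together, 250 (1.14%) had at least 1 WT peak and no mutant peak in such a window, and 583 (2.66%) had the reverse, at least 1 mutant peak and no WT peak. Only 3 genes (0.0137%) had 10 or more WT peaks and no mutant peak, namely Mtap with 44, Slitrk1 with 13 and Myocd with 10, and the next below them was Sgsm1 with 9. In the other direction, 8 genes (0.0365%) had 10 or more mutant peaks and no WT peak. The 2 directions are not counted alike, because the mutant peaks come from 12 lists and the WT peaks from 10. These shares are printed as background only, because the 5 genes were chosen on these counts.

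Map2k4 had 10 mutant peaks and 15 WT peaks within its window, Slitrk1 0 and 13, Myocd 0 and 10, Arhgap44 1 and 7, and Elac2 1 and 1. The 1 mutant peak counted for Elac2 and for Arhgap44 is the same H3K4me3 peak at the Elac2 start. The WT H3K4me3 peak there is also counted for both genes. Every other WT peak of Arhgap44 is counted for Myocd too, because the windows overlap. ARID1A had more WT peaks than any other target at 4 of the genes, with 6 of 15 at Map2k4, 6 of 13 at Slitrk1, 5 of 10 at Myocd and 4 of 7 at Arhgap44, against 2 mutant ARID1A peaks at Map2k4 and 0 at the others. The ARID1A list was also the largest of the WT line, with 22199 of its 90808 peaks. SMARCC1 had 3 WT peaks at Slitrk1, 2 at Map2k4, 1 at Myocd and 1 at Arhgap44, and no mutant SMARCC1 peak lay in any of the 5 windows. The mutant SMARCC1 list was short, and 83.1% of all WT SMARCC1 peaks had no overlapping mutant one, so this absence is close to the rule. Menin peaks were found at Map2k4 alone, 3 in the mutant line and 3 in the WT line, and a KMT2D peak at Slitrk1 alone. In each line, a Menin, an H3K4me3 and an ARID1A peak of the Map2k4 window lay within 1 kb of the near end of the next gene, Zkscan6. Over the whole lists, the share of WT peaks with no overlapping mutant peak of the same target was 8.35% for H3K4me3, 17.5% for TFAP2A, 23.0% for Menin, 29.1% for ARID1A and 46.7% for UTX.

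**Figure D1:**
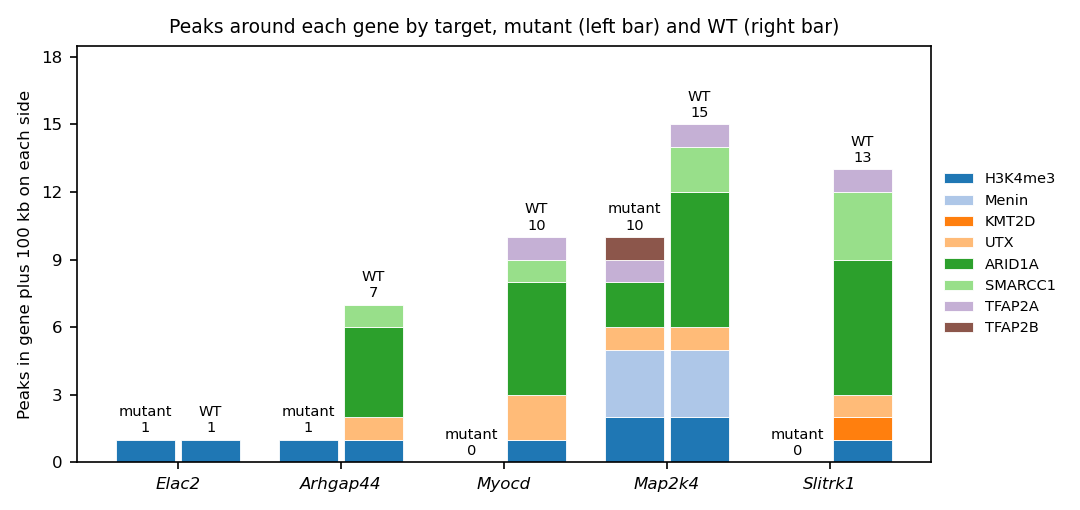
Number of peaks in each gene plus 100 kb on each side (y axis) for the 5 genes (x axis), coloured by target, with the mutant line as the left bar and the WT line as the right bar, 1 library per target. Myocd and Slitrk1 have 0 mutant peaks against 10 and 13 WT peaks, while Map2k4 has 10 mutant and 15 WT peaks.

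Elac2, Arhgap44, Myocd and Map2k4 share 1 stretch on chromosome 11. It ran from 64979871 to 65784493 (mm10), 805 kb, and held all of Arhgap44 and Myocd, 96.4% of Elac2 and 96.1% of Map2k4. Besides these 4 protein-coding genes the RefSeq table places 6 long noncoding RNAs, 1 microRNA, 1 small nuclear RNA and 1 pseudogene there. By length it ranked 380 among 42724 runs between mutant peaks, and by WT peaks it ranked 3. It overlapped 24 WT peaks, whereas the 384 mutant stretches of at least 800 kb had a median of 1 WT peak and 138 of them had none.

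Both edges of the chromosome 11 stretch fell at sites that the 2 lines share. The lower edge is the Elac2 promoter, where the mutant H3K4me3 peak covered 64978604 to 64979870 with a fold enrichment of 20.1 and the WT H3K4me3 peak covered 64978574 to 64979786 with 16.5. Fold enrichment is the authors' value for a peak over the caller's background and is set here against peaks of the same list: the mutant Elac2 peak stood at the 59.5th percentile of its list and the WT one at the 71.9th. The upper edge lies inside Map2k4, 3.8 kb from its start. There the mutant line had ARID1A at 65784494 to 65784700 with a fold of 15.2 (73.3rd percentile) and UTX at 65784540 to 65784701 with 5.09 (18.4th percentile), and the WT line had ARID1A at 65784486 to 65784736 with 13.6 (73.5th percentile) and UTX at 65784441 to 65784700 with 12.4 (64.3rd percentile). The ARID1A peak therefore held nearly the same place within both lists, whereas the UTX peak stood lower in the mutant list than in the WT list.

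**Figure D2:**
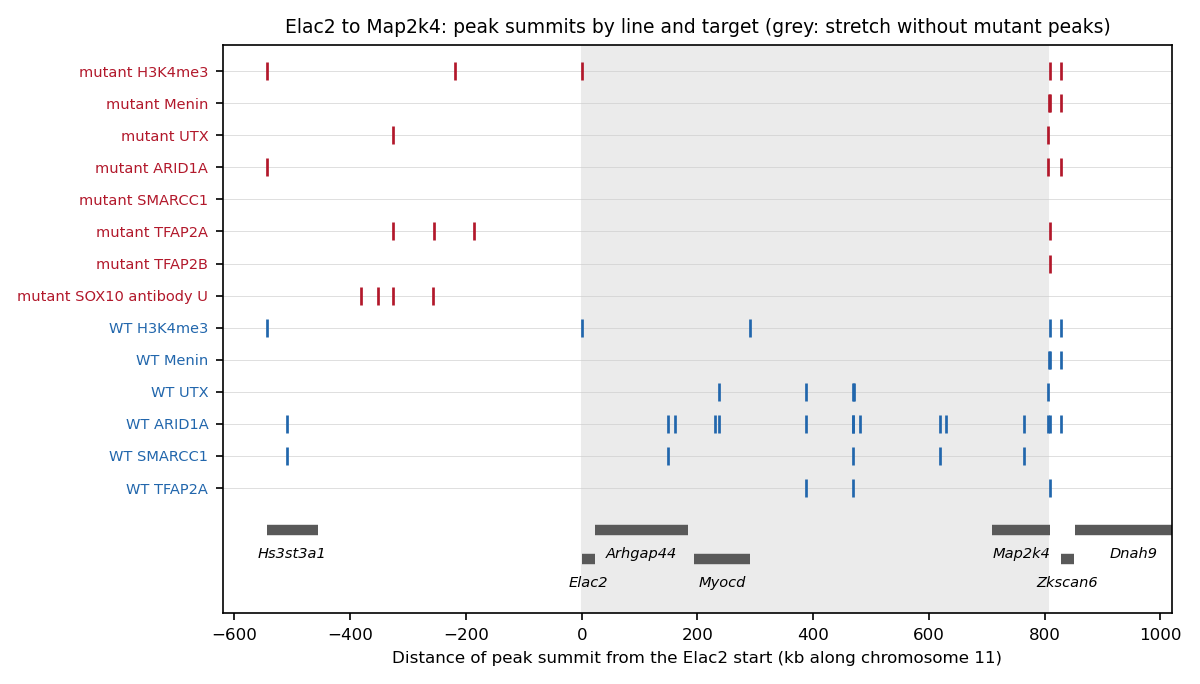
Summits of peaks by line and target (rows, mutant above WT) against distance from the Elac2 start along chromosome 11 in kb, with gene bodies as dark bars and the 805 kb stretch without mutant peaks in grey. The grey area starts at the Elac2 H3K4me3 peak, which both lines have, ends at shared ARID1A and UTX peaks inside Map2k4, and holds WT summits from 149 kb past the Elac2 promoter onward.

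The start of Map2k4, just past the upper edge, carried H3K4me3, Menin and TFAP2A in both lines. H3K4me3 covered 65787122 to 65788632 in the mutant line with a fold of 21.5 and 65787027 to 65788572 in the WT line with 21.3, at the 63.4th percentile of the mutant list and the 88.6th of the WT list. Menin had 2 mutant peaks there, with folds of 4.25 and 6.54, and 2 WT peaks, with 7.66 and 5.89. TFAP2A had a mutant peak with a fold of 16.1 (76.9th percentile) and a WT peak with 7.36 (36.9th percentile), and their summits lay 63 bp upstream of the start in the mutant line and 51 bp in the WT line. TFAP2A thus held a higher place in the mutant list than in the WT list at this promoter. TFAP2B, a paralogue profiled here in the mutant line only, had a peak with a fold of 5.33, and an ARID1A peak with a fold of 4.72, at the 7.78th percentile, was listed for the WT line only.

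Most of the Map2k4 gene body lay in the stretch. Its 1 internal WT site below the edge, at 65743951 to 65744398 and 44 kb from the start, had ARID1A with a fold of 7.24 and SMARCC1 with 5.06. The table also places Mir744, a microRNA gene, inside Map2k4 at chr11:65734733-65734832 on the minus strand. Its nearest mutant peak was an ARID1A peak 49.7 kb away and its nearest WT peak an ARID1A peak 9.12 kb away. The mature sequences from RefSeq are given because this is the only annotated microRNA of the stretch, with the seed (bases 2 to 8) in capitals; the 2 arms have different seeds.
mmu-miR-744-5p: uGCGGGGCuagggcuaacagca
mmu-miR-744-3p: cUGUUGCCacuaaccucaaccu

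At Elac2 nothing but the promoter peak was found in either line. The gene spans 64979030 to 65002080, and its window held 1 mutant and 1 WT peak, both H3K4me3. The run beyond that promoter was empty in the WT line too, for 149 kb up to 65128597, so over Elac2 itself both lines had the same single mark. Elac2 therefore belongs to the stretch by position, not by any WT peak of its own that the mutant line lacked.

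Arhgap44, at 65002039 to 65162972, had 0 mutant and 3 WT peaks inside the gene. The annotated start had no peak in either line. The WT peaks formed 2 intragenic sites: one at 65128598 to 65129295, 34 kb from the start, with ARID1A at a fold of 19.0 (86.8th percentile) and SMARCC1 at 14.3 (83.3rd percentile), and one at 65139240 to 65139514 with ARID1A at 5.28. The ARID1A peak of the first site was the strongest of the 11 in the stretch.

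Myocd, at 65173608 to 65269989, had 0 mutant and 3 WT peaks inside the gene, at 2 sites. ARID1A alone was found at 65209535 to 65209846 with a fold of 9.40, and UTX with 9.23 and ARID1A with 4.30 at 65215415 to 65215724. A WT H3K4me3 peak at 65270057 to 65270273, 68 bp beyond the end of the gene with the higher coordinate, was near the caller's limit, with a fold of 3.28 (1.64th percentile) and a −log10 q of 1.31; the mutant H3K4me3 list held none. At a −log10 q of at least 5 that peak was no longer counted. Farther out, at 65365767 to 65367063, TFAP2A with a fold of 5.91, UTX with 9.23 and ARID1A with 7.70 overlapped.

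Between Myocd and Map2k4 lay the site with the most WT targets of the stretch, at 65448297 to 65448976 and 178 kb from Myocd. It had SMARCC1 with a fold of 18.8 (91.9th percentile), ARID1A with 15.1, TFAP2A with 10.4 and UTX with 6.20. Of the 24 WT peaks that overlapped the stretch, 2 belonged to its upper edge, and 22, at 12 sites, lay wholly inside: ARID1A at 11, SMARCC1 at 4, UTX at 4, TFAP2A at 2 and H3K4me3 at 1, with no Menin and no KMT2D peak. Every one of the 4 SMARCC1 sites also had ARID1A, and 5 of the 12 sites lay in a gene. ARID1A folds there ran from 4.30 to 19.0 with a median of 7.24, below the median of 9.13 for the whole WT ARID1A list, while SMARCC1 folds ran from 5.06 to 18.8 with a median of 11.6, above its list's 8.01.

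Slitrk1 lay alone in a longer stretch on chromosome 14. It ran from 106164249 to 109760937, 3.60 Mb, and Slitrk1 was its only protein-coding gene, beside 8 long noncoding RNAs, 23 pseudogenes and 1 small nucleolar RNA. By length it ranked 17 among the mutant runs and by WT peaks it ranked 2, with 29 overlapping. None of the other mutant stretches of at least 3 Mb, of which there were 35 with this one, held more than 11.

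Here too the edges were sites with peaks in both lines. At the lower edge ARID2, a subunit of the PBAF form of SWI/SNF, had a mutant peak at 106163717 to 106164248 with a fold of 7.25 and a WT peak at 106163878 to 106164141 with 6.0. At the upper edge the mutant line had ARID1A at 109760938 to 109761209 with a fold of 4.38 (6.11th percentile) and UTX with 8.70 (62.6th percentile), and the WT line had ARID1A at 109760800 to 109761134 with 6.70 (29.9th percentile). The mutant ARID1A peak that ends the stretch was thus among the weakest of its list.

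**Figure D3:**
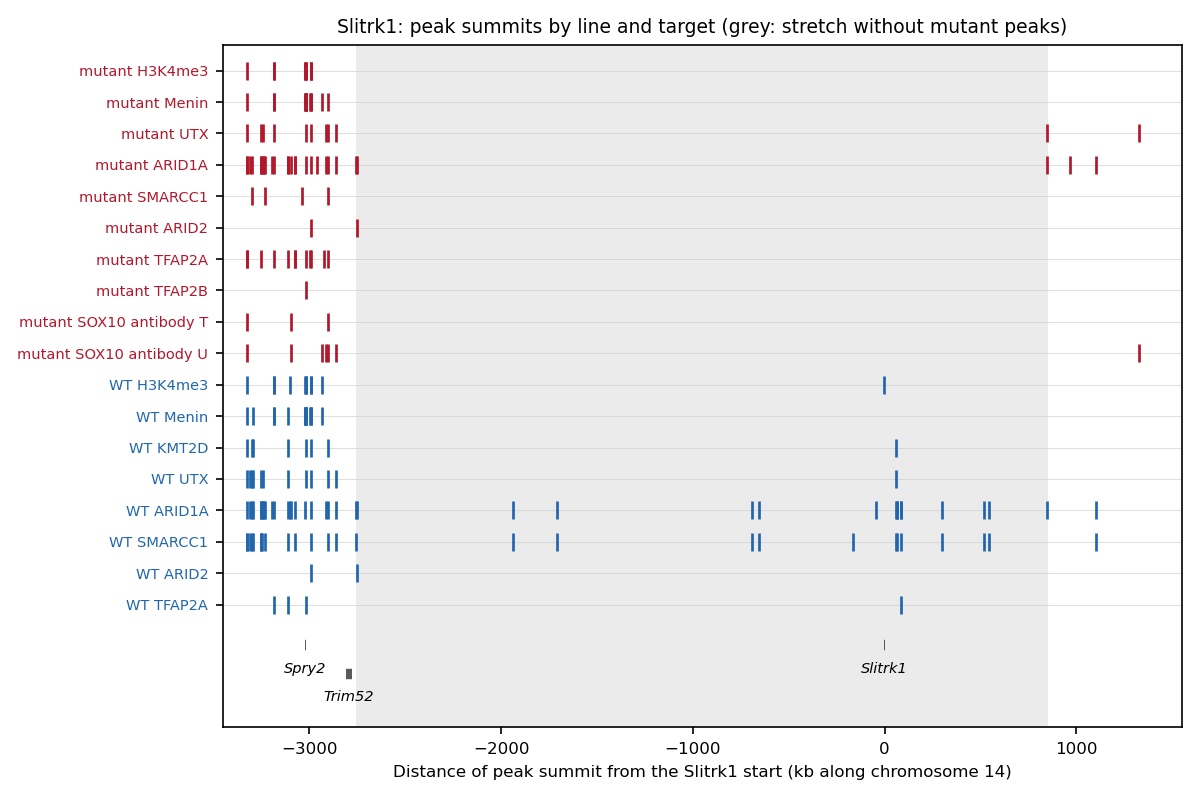
Summits of peaks by line and target (rows, mutant above WT) against distance from the Slitrk1 start along chromosome 14 in kb, with the 3.60 Mb stretch without mutant peaks in grey and genes as dark marks. WT ARID1A and SMARCC1 summits are scattered through the grey area, with a group just above Slitrk1, and both lines have dense peaks below its lower edge.

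The Slitrk1 promoter carried H3K4me3 in the WT line only. That peak covered 108912610 to 108914372, 1763 bp, with a fold of 10.1 and a −log10 q of 14.7, at the 43.3rd percentile of the WT list; the mutant list had none. Over all genes, 119 of the 10787 with a WT H3K4me3 peak within 1 kb of a gene end had no mutant one (1.1%). The absence of a mutant peak at Slitrk1 follows from how it was chosen, so this share is background.

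Of the WT peaks near Slitrk1, most gathered upstream, with summits 60.3 to 84.8 kb from its start. The nearest of these sites, at 108974375 to 108974787, was the single one in either stretch with KMT2D, at a fold of 5.80 (19.3rd percentile), together with UTX at 6.95 and SMARCC1 at 3.58. Close to it, at 108976794 to 108977316, stood the strongest SMARCC1 peak of the stretch, with a fold of 18.8 (91.9th percentile), and ARID1A with 12.8 (70.3rd percentile). Farther upstream, 2 sites had ARID1A with 16.8 and TFAP2A with 5.91 at 108997902 to 108998204, and ARID1A with 8.26 and SMARCC1 with 8.06 at 108998590 to 108999298. No mutant peak of any of the 12 lists lay at these sites.

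Across the whole Slitrk1 stretch, 28 WT peaks lay wholly inside, at 16 sites: ARID1A at 13, SMARCC1 at 11, and H3K4me3, KMT2D, UTX and TFAP2A at 1 each. ARID1A and SMARCC1 shared 9 sites, or 56.2%, whereas they shared 4 of 12 sites, or 33.3%, in the chromosome 11 stretch and 27.1% of all WT sites. UTX was found at 1 of the 16 Slitrk1 sites and at 4 of the 12 chromosome 11 sites. Among sites more than 5 kb from gene ends, both were found at 60.0% in the Slitrk1 stretch, 36.4% in the chromosome 11 stretch and 39.2% over all WT sites. ARID1A was present at 13 of 15 such sites in the Slitrk1 stretch and at 11 of 11 in the chromosome 11 stretch, beside 16393 of 21670 over all WT sites; these differences between small numbers of sites were not tested. Over all WT sites, 22.3% had no overlapping mutant peak of any target, and over those more than 5 kb from gene ends with both ARID1A and SMARCC1 it was 17.4%.

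Stretches with so many peaks of the other line were rare in both directions. Of 20538 mutant stretches of at least 20 kb, 12982 held at least 1 WT peak and 6 held at least 20, the Elac2 to Map2k4 and Slitrk1 stretches among them. Of 18374 WT stretches of at least 20 kb, 13583 held at least 1 mutant peak and 13 held at least 20, with a highest count of 51. Stretches of at least 20 kb with at least 20 peaks of the other line were thus found in both directions. The lengths of those 13 WT stretches are not given here, so whether they are long was not tested. The directions are not counted alike, because the mutant peaks come from 12 lists and the WT peaks from 10.

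**Figure D4:**
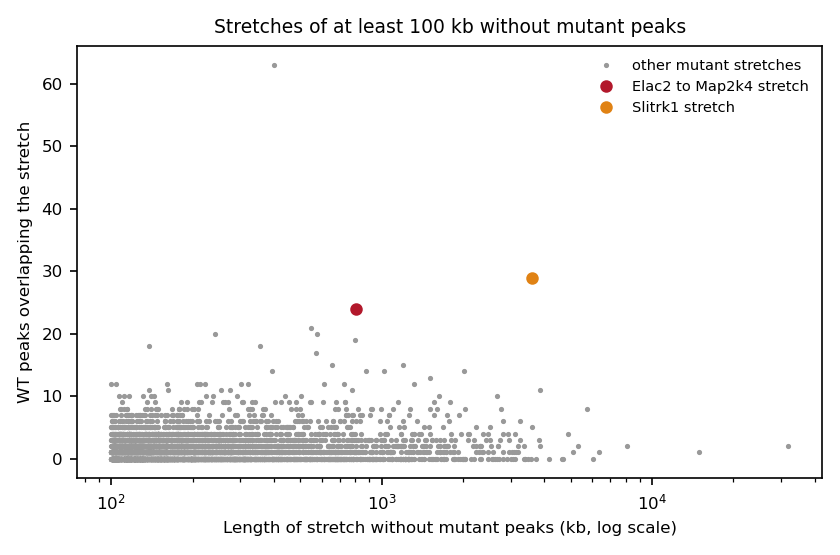
WT peaks overlapping each mutant stretch of at least 100 kb (y axis) against its length in kb (x axis, log scale), with 5010 stretches in all. The Elac2 to Map2k4 stretch has 24 WT peaks at 805 kb and the Slitrk1 stretch 29 at 3597 kb, while most long stretches have few or none.

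The empty runs were longer when each mutant target was taken alone, as pooling of the lists fixes, so only their lengths are described. Runs of single WT targets were not computed. On chromosome 11 the run around the 4 genes was shortest for H3K4me3, 807 kb from Elac2 to Map2k4, followed by TFAP2A with 995 kb, UTX with 1131 kb and ARID1A with 1349 kb, and reached 2652 kb for Menin and 5227 kb for SMARCC1. On chromosome 14 the run around Slitrk1 was shortest for ARID1A, 3598 kb, followed by UTX with 3708 kb, and was 4740 kb for Menin, 4831 kb for H3K4me3 and 5880 kb for SMARCC1. With all mutant lists pooled, the edges were set by H3K4me3 and ARID1A on chromosome 11 and by ARID2 and ARID1A on chromosome 14. At each upper edge a mutant UTX peak overlapped the ARID1A peak.

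Both lines had peaks within 2 Mb of each edge, unevenly spread. Within 2 Mb below the chromosome 11 stretch there were 48 mutant and 27 WT peaks, and within 2 Mb above it 70 mutant and 44 WT peaks. Beside the Slitrk1 stretch there were 112 mutant and 100 WT peaks below and 24 mutant and 12 WT peaks above. The mutant to WT ratios, 1.78 and 1.59 on chromosome 11 and 1.12 and 2.0 on chromosome 14, stood beside 1.18 for the full lists. Of the WT sites in these flanks, 8 of 12, 18 of 19, 34 of 38 and 8 of 9 overlapped a mutant peak, in the same order, against 0 of the 12 and 0 of the 16 sites inside, which the choice of stretches fixed. Above the chromosome 11 stretch, the bins from 100 to 1100 kb past the edge held no peak in the mutant line and none in the WT line.

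Just below Elac2 the picture was turned round. A run of 509 kb without WT peaks, from 64469274 to 64978573, ended at the Elac2 promoter and held 9 mutant peaks: 4 of SOX10 with antibody U, 3 of TFAP2A, 1 of UTX and 1 of H3K4me3. Their folds were modest, from 4.53 to 6.40, and at 1 place, near 64652836 to 64653176, UTX, TFAP2A and SOX10 overlapped. SOX10 was profiled in the mutant line only, so 5 of these 9 peaks have a WT list to be set against. Over these runs, mutant peaks lay only below the Elac2 promoter and WT peaks only above it, which the definition of the runs fixed. The WT line also had no peak for the first 149 kb above the promoter peak. Among all WT stretches of at least 20 kb, 13583 of 18374 held at least 1 mutant peak and 13 held at least 20. The share with 9 or more, or among stretches of similar length, is not given here. Whether the promoter is a border was not tested.

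The first genes beyond the edges had gene-end H3K4me3 in both lines or in neither. Zkscan6, a zinc finger gene 22.7 kb past the upper edge of the chromosome 11 stretch, had H3K4me3 at the 58.9th percentile in the mutant line and the 44.5th in the WT line. Hs3st3a1, a heparan sulfate sulfotransferase gene 457 kb below the lower edge, stood at the 30.2nd percentile in the mutant line and the 1.64th in the WT line. On chromosome 14, Slitrk6, a family member of Slitrk1 986 kb above, stood at the 28.0th percentile in the mutant line and the 7.76th in the WT line, and Trim52, 28.4 kb below, had no H3K4me3 peak in either. All 3 marked neighbours stood higher in the mutant list, whereas Elac2 and Map2k4, at the edges, stood lower in the mutant list than in the WT list. The WT peaks of Hs3st3a1 and Slitrk6 were weak, with folds of 3.28 and 4.08. The fold at Hs3st3a1 equals that of the WT Myocd peak near the caller's limit, so its mark in the WT line is uncertain.

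**Figure D5:**
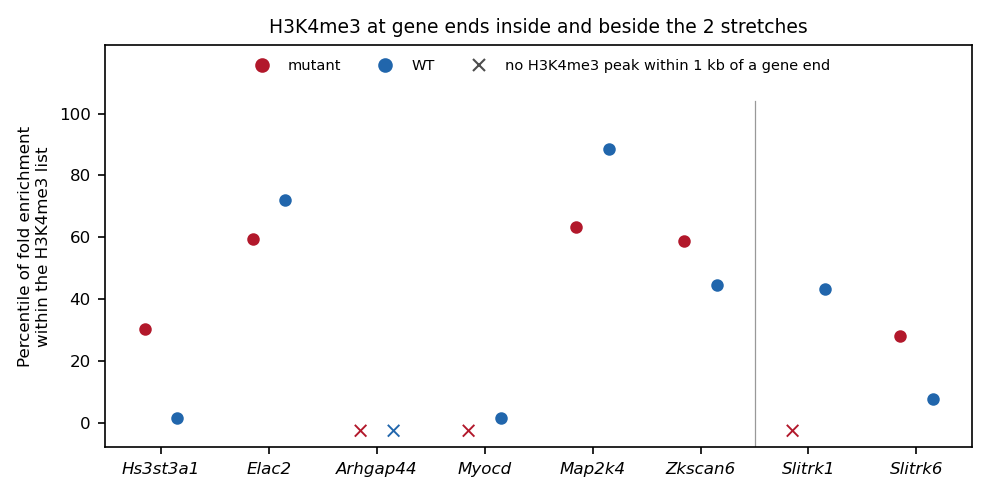
Percentile of the authors' fold enrichment within the H3K4me3 list of its own line (y axis, 0 to 100) for genes inside and beside the stretches of chromosome 11 (left of the line) and chromosome 14 (right of it), mutant in red and WT in blue, 1 library each, with a cross where no H3K4me3 peak lay within 1 kb of a gene end. Elac2 stands at 59.5 in the mutant line and 71.9 in the WT line, Map2k4 at 63.4 and 88.6, and Slitrk1 and Myocd have a WT peak only.

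Genes of the same pathways and families were set beside these genes. In the JNK and p38 cascade around Map2k4, 19 of 24 genes had H3K4me3 within 1 kb of a gene end in the mutant line and 19 in the WT line, against 53.8% of all genes in the mutant line and 49.3% in the WT line. Map2k7, the other JNK-activating kinase, had 32 mutant and 29 WT peaks in its window, and Map2k3 and Map2k6, which activate p38, had 32 and 24 mutant and 31 and 22 WT peaks. Mapk8 and Mapk9, which encode JNK kinases, had 15 and 11 mutant and 17 and 5 WT peaks. Mapk10, a further JNK gene, had 13 mutant and 22 WT peaks and no gene-end H3K4me3 in either line. All 4 of these kinase kinase genes, Map2k4 included, had gene-end H3K4me3 in both lines.

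Of 13 serum response factor partners and smooth muscle genes, set beside Myocd, 7 had gene-end H3K4me3 in the mutant line and 4 in the WT line. Srf and its other coactivators Mrtfa and Mrtfb were marked in both, with 30, 44 and 23 mutant peaks and 26, 48 and 22 WT peaks in their windows. Acta2, smooth muscle actin, Lmod1, an actin filament nucleator, and Mylk, a myosin light chain kinase, had the mark in the mutant line only. Peaks of all targets around the 13 genes had a median of 23.0 in the mutant line and 25.0 in the WT line, with 22 mutant and 5 WT peaks around Acta2 and 23 mutant and 33 WT peaks around Myh11, a smooth muscle myosin. Over all genes the shares were 53.8% in the mutant line and 49.3% in the WT line, and 1114 genes had the mark in the mutant line only against 119 in the WT line only. The smooth muscle markers given above are 5 of them, and their part in the absence of Myocd peaks was not tested.

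The other lists differed little in number. Gene-end H3K4me3 was found at 14 of 15 genes of tRNA end processing in the mutant line and 13 in the WT line, with Rpp25, a subunit of RNase P, as the difference, and Elac1, the short paralogue of Elac2, was marked in both. Among the SLITRK family and LAR-type receptors it was found at 3 of 8 in each line, Slitrk5, Slitrk6 and Ptprs. Slitrk2 and Slitrk4 had no peak in either line within 100 kb, Slitrk3 had 1 mutant peak and 0 WT peaks, and Slitrk5 had 4 mutant and 2 WT peaks. No gene of any of these 4 lists had WT peaks and no mutant peak.

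The genes most like Myocd and Slitrk1 were taken as those with no mutant peak in the window and the most WT peaks over the 9 paired targets, 1 per stretch. By that count Slitrk1 had 12 WT peaks and Myocd 10. Mtap, on chromosome 4, had 42, Sprr2a1, on chromosome 3, had 9, Sgsm1, on chromosome 5, had 8, and Ccser1, on chromosome 6, and Fam3b, on chromosome 16, had 7 each. Mtap differed from the rest in its targets, with 16 Menin and 6 H3K4me3 peaks, whereas Sprr2a1, Sgsm1, Ccser1 and Fam3b, like Myocd and Slitrk1, had no Menin peak and 0 or 1 H3K4me3 peak. Their mutant stretches ran to 400 kb for Mtap, 610 kb for Sprr2a1, 614 kb for Sgsm1, 5739 kb for Ccser1 and 542 kb for Fam3b.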

How the data were processed

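CUT&RUN of 9 targets in both lines, of 3 antibodies in the mutant line only and of KMT2D in the WT line only gave 22 deposited peak lists. Per the submitters' processing notes, the genome was mm10 and the tools were FastQC, MultiQC, Bowtie2 and MACS2, while their versions, the peak threshold and any control are not given in the sources used here. For every peak the deposited columns were a score, the fold enrichment as the authors' ratio, the authors' −log10 p, and the authors' −log10 q. The lowest −log10 q of the lists lay between 1.30 and 1.59. Read depth and coverage are unknown from peak lists, so a run without peaks cannot be told apart from a run without reads, and no interval or floor was computed.

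All peaks were used, with coordinates counted from 1, and genes came from the RefSeq table of GRCm38.p6. An overlap of at least 1 bp with the gene plus 100 kb on each side counted a peak, and a gene-end peak lay within 1 kb of either end. A WT site was a merged set of overlapping WT peaks. Fold enrichment was compared within its own list only, as a percentile. Counting was done with Python 3.11.15, pandas 2.3.3 and NumPy 2.4.6, and the counting of overlaps and runs was checked on simulated peaks. The genes and the lists of partners and markers were chosen with earlier results of these data known. Named genes are the 5 genes, protein-coding genes in or first beyond each stretch, the listed partners and markers, and the 5 most alike genes; Mtap is among these, Mir744 was added because it lies in Map2k4, and Sgsm1 as the next gene below 10 WT peaks. One further list of partners, set beside Arhgap44, is not reported here. Alternatives were windows of 50 and 200 kb, a −log10 q of at least 5, summits instead of overlaps, the 9 paired targets, no SMARCC1, lists of equal length, no regions called in at least 15 libraries, and each mutant library left out.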

Additional observations from a re-analysis of the deposited data

How the results depend on the processing

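With windows of 50 kb instead of 100 kb the 5 genes together had 22 WT peaks instead of 39, and Slitrk1 alone had 2 instead of 13, because its upstream peaks lie beyond 50 kb. With windows of 200 kb, 156 genes instead of 250 had WT peaks and no mutant peak, and the Myocd window then held 1 mutant peak, the one at the Elac2 start, and 18 WT peaks. With 200 kb the 5 genes together had 12 mutant and 47 WT peaks. Apart from the window size, the planned choices gave 8 to 11 mutant peaks and 29 to 39 WT peaks in the 5 windows, and 222 to 278 genes had WT peaks and no mutant peak. Leaving out each of the 12 mutant libraries gave a stretch of 805 to 991 kb for Map2k4, Myocd, Elac2 and Arhgap44, the highest without the H3K4me3 list. For Slitrk1 it gave 3597 to 3598 kb. Removing a mutant library can only keep or lengthen a stretch without mutant peaks, so only the lengths are described. Of 90 counts by gene, line and target, 79 were unchanged under the stricter threshold (−log10 q of at least 5) and 11 fell. With lists of equal length 87 were unchanged and 3 fell. Both choices only remove peaks, so the counts of 0, which were most of the 90, could not change. Under the stricter threshold the mutant UTX peak at Map2k4 and the WT H3K4me3 peak at Myocd were no longer counted. With equal lengths SMARCC1 kept 1 of 3 WT peaks at Slitrk1 and 0 of 2 at Map2k4. Depth is unknown, so whether a missing peak reflects fewer reads was not tested. No paired analysis was possible because each line and target had 1 library.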
